A study of Mus musculus with 33 samples.

Results

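The transcriptome of cultures treated with CD1530 was compared between day 1.5 and day 2.5 of induction, which are D7.5 and D8.5 of the differentiation protocol. The comparison comprised 6 of the 33 bulk RNA-seq libraries of the time course, 3 for each day, chosen by their labelled ligand and day, and all 17120 genes of the deposited count table. Mouse embryonic stem cells (mESCs) from ScxGFP mice, in which GFP reports the activity of the tendon gene Scx, were first specified to paraxial mesoderm (PM), the embryonic tissue that forms the somites. This was done as embryoid bodies with the BMP inhibitor LDN-193189 and then with the Wnt agonist CHIR added. The PM cells were then cultured as a monolayer in TGFβ1, the hedgehog agonist SAG and FGF2 together with 1 of 2 retinoid ligands: CD1530, which activates the RARγ receptor, or AGN 193109 (AGN), an inverse agonist of the receptors.

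By the described protocol both days compared here share the mESC origin, the PM step and every component of the induction medium, CD1530 included. The planned difference is 1 further day of culture. There was no CD1530-free control culture other than AGN at these days. The study's methods also describe PM steps with AGN or all-trans retinoic acid added, and the labels do not say which PM step preceded these libraries. The study used several ScxGFP mESC lines, and the labels do not say which line each library came from. A difference of line or PM step between the days could not be told apart from the further day. The labels call the libraries replicates of a group, and the study describes 3 biological replicates, or independent samples, without saying whether these were separate cultures. The p-values rest on the spread between replicates, estimated over all 11 groups of the series, and part of it may be technical. Apart from their part in the shared scaling and spread, the AGN libraries of the same 2 days (6 libraries in 2 groups of 3) are used only to show where the step in CD1530 differed.

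Retinoic acid receptors are transcription factors that bind DNA together with RXR partners at pairs of a short half-site, recruit coactivators when an agonist is bound, and hold corepressors when an inverse agonist is bound. Their established targets include the receptor gene Rarb, enzymes of the Cyp26 family and Dhrs3 that lower retinoid levels, and Hox genes at the 3′ ends of their clusters. Tendon progenitors of the trunk arise from the somite under FGF and TGFβ signals, express Scx, and later make a collagen-rich matrix and the membrane protein tenomodulin (Tnmd). Cartilage cells of the same region express Sox9, which activates Col2a1 and Acan, and retinoid signalling is known to restrain that programme.

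The total count was 17.1 M to 22.4 M in the 6 CD1530 libraries and 17.6 M to 38.1 M in the 6 AGN libraries, the highest being AGN at day 2.5 replicate 1. Mitochondrial genes took 0.802% to 1.066% of counts in the CD1530 libraries. Replicates were not copies of each other, and the biological coefficient of variation over the whole series was 4.68%. Levels below are counts per 1000000 (CPM) scaled by TMM, a normalization that assumes most genes do not change. The labels name a ligand and a day and no cell type. The fixed tendon markers Scx, Mkx and Tnmd summed to 776 to 797 CPM at day 1.5 and 1196 to 1224 CPM at day 2.5. Nearly all of this was Scx, and Tnmd had very few reads at day 1.5, as given below. Markers of other cells were present too. The pluripotency markers Pou5f1, Nanog and Zfp42 summed to 564 to 571 CPM and then 303 to 313 CPM, the endothelial markers to 339.8 to 359 CPM and then 212 to 223 CPM, and the endoderm and epithelial markers to 347 to 369 CPM and then 233 to 239.8 CPM. In bulk libraries fewer cells of a type and less RNA per cell cannot be told apart. Whether these marker sets came from separate cells cannot be told either.

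From day 1.5 to day 2.5 in CD1530, genes of the retinoid response, the Hox B cluster, the fibrous matrix, the contractile apparatus, sterol synthesis and the 2-cell-like state rose, and genes of pluripotency, endoderm, endothelium and the interferon response fell. Of the 17120 genes, 6253 (36.5%) were called at an edgeR adjusted p under 0.05, 3227 higher (18.8% of all genes) and 3026 lower (17.7%) at day 2.5. These shares are the background for the counts of list members below. Most changes were small: the median absolute log2 fold change of called genes was 0.37, and 840 genes were called with a change of at least 1, 408 higher (2.38%) and 432 lower (2.52%). For 8616 genes (50.3%) the libraries of the days did not overlap. The split depended on the scaling, since library size alone gave 2566 higher and 3766 lower and moved the median change of all genes to -0.04.

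**Figure D1:**
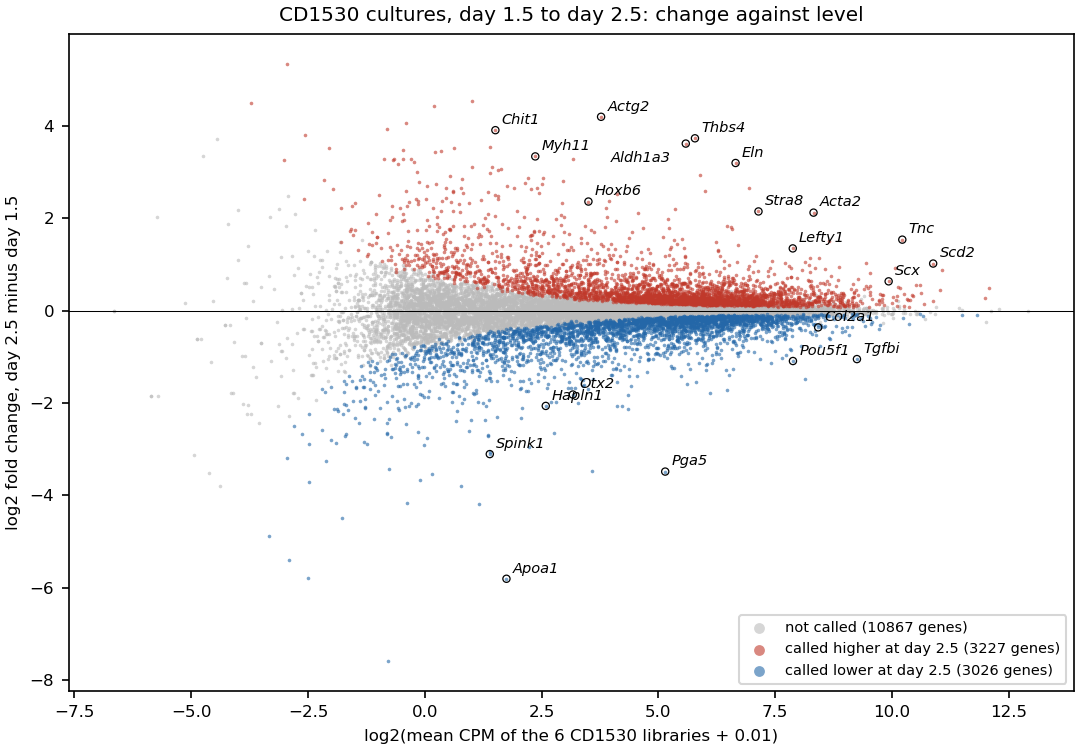
Log2 fold change from day 1.5 to day 2.5 (y axis) against log2 of the mean CPM of the 6 CD1530 libraries plus 0.01 (x axis) for each of 17120 genes, with called genes in red (higher) and blue (lower) and the others in grey. Changes spread to both sides, with Actg2 and Thbs4 among the largest increases and Apoa1 far below the rest of the named decreases.

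The genes with the largest increases by the naming rule were Actg2, Chit1, Thbs4, Aldh1a3, Myh11, Ackr4, Eln, Izumo1r, Mgp and Zscan4e. The rule took only called genes whose days did not overlap. For these genes, here and with their lists below, the call and the lack of overlap were thus conditions of the choice and not findings. Actg2 (ENSMUSG00000059430, chromosome 6, 83512905 to 83536265 on GRCm38), an actin of smooth muscle, was at 1.42, 1.48 and 1.34 CPM at day 1.5 and 25.7, 27.1 and 24.9 CPM at day 2.5. All 3 libraries of day 2.5 lay above all of day 1.5, and the level was 18.3-fold higher (log2 fold change ± SE 4.19 ± 0.13, adjusted p 9.38e-27). Thbs4, a thrombospondin of tendon and muscle matrix (chromosome 13, 92751590 to 92794818), was at 7.19, 9.04 and 6.93 CPM at day 1.5 and 102, 100 and 106 CPM at day 2.5. Aldh1a3, which makes retinoic acid from retinal (chromosome 7, 66390890 to 66427517), was at 7.40, 7.79 and 6.63 CPM at day 1.5 and 91.2, 87.4 and 88.2 CPM at day 2.5. The days were far apart for both, with changes of 3.73 ± 0.07 (adjusted p 1.33e-32) and 3.61 ± 0.06 (1.52e-35). Chit1 rose from 0.355 to 5.33 CPM (3.90 ± 0.28), the chemokine receptor gene Ackr4 from 1.65 to 16.5 CPM (3.29 ± 0.14) and Mgp, an inhibitor of calcification, from 13.8 to 105 CPM (2.94 ± 0.07). The other members of this group are described with their lists below.

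Among the largest decreases, Apoa1, an apolipoprotein gene of liver and yolk sac endoderm (chromosome 9, 46228580 to 46230466), was at 6.64, 6.12 and 7.02 CPM at day 1.5 and 0, 0.266 and 0.0590 CPM at day 2.5. It held at most 5 counts in a library of day 2.5, so its fitted change of -5.81 ± 0.33 (adjusted p 4.11e-18) rests on few counts. Pga5, which encodes a pepsinogen (chromosome 19, 10668956 to 10678071), was at 65.5, 66.1 and 63.6 CPM at day 1.5 and 7.15, 5.05 and 5.19 CPM at day 2.5. It was thus 11.2-fold lower at day 2.5 (-3.49 ± 0.08, adjusted p 3.25e-32), with no overlap between the days. Tph1, the first enzyme of serotonin synthesis outside the brain, fell from 21.95 to 1.95 CPM (-3.47 ± 0.15), the trypsin inhibitor gene Spink1 from 4.69 to 0.538 CPM (-3.11 ± 0.24), Hkdc1 from 4.70 to 0.559 CPM (-3.06 ± 0.19) and the coagulation factor gene F5 from 4.43 to 0.668 CPM (-2.71 ± 0.29). Rgs8 (-2.96), Irs4 (-2.65), Lhx1 (-2.33) and Abca9 (-2.30) completed these 10. They too were chosen among called genes whose days did not overlap.

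**Figure D2:**
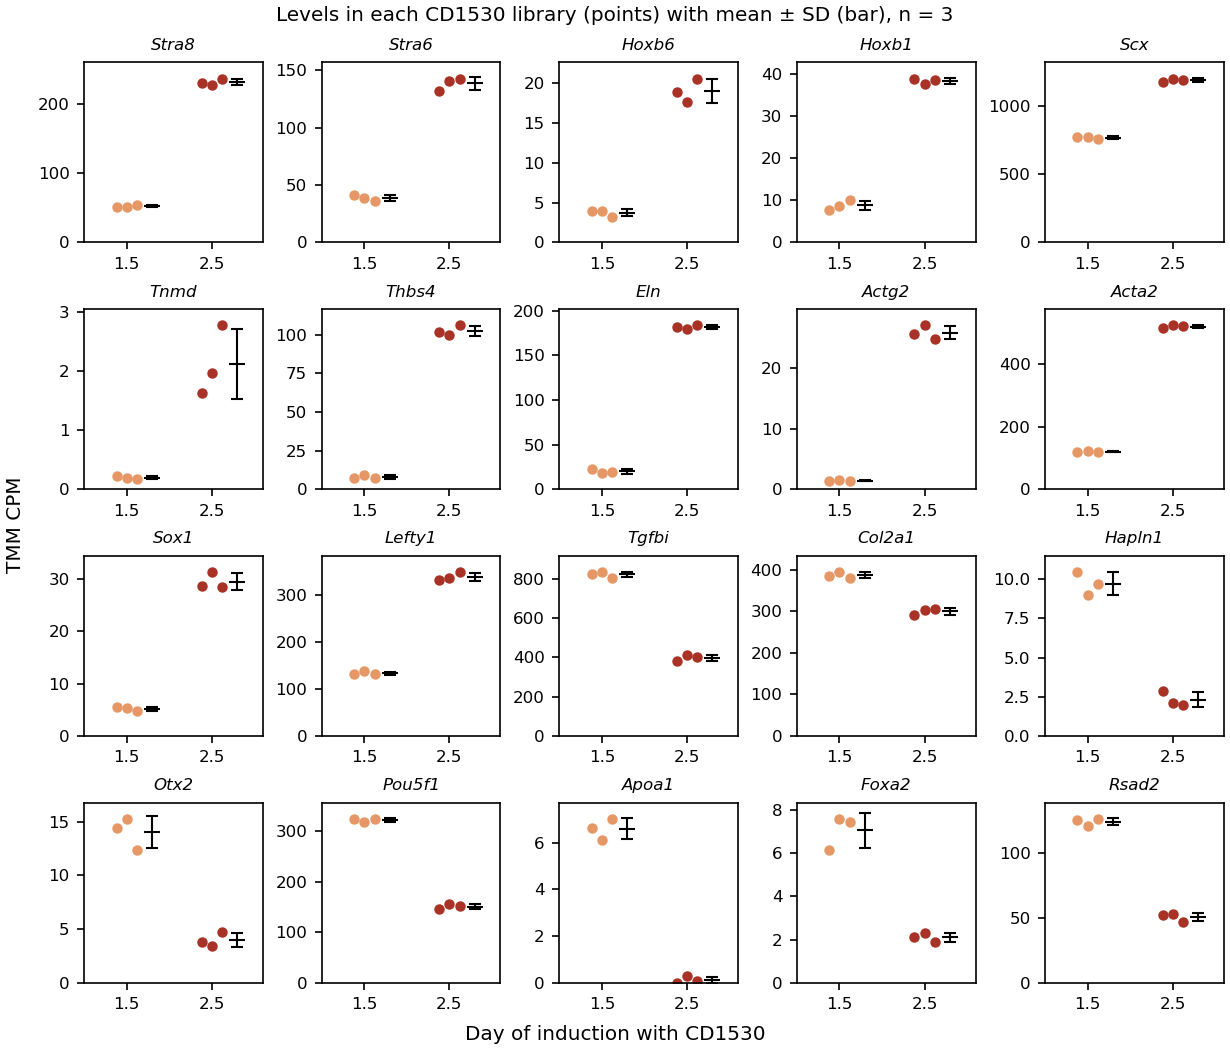
TMM CPM (y axes, from 0) of 20 genes in each of the 3 CD1530 libraries of day 1.5 and of day 2.5 (x axes), with the mean ± SD beside the points. In all 20 panels the points of the days are apart, with Stra8 going from about 52 to about 231 CPM and Pou5f1 from about 321 to about 151 CPM.

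Retinoid targets rose as a group during a day in which the agonist had already been present. Of 18 measured members, 14 were called higher and 1 lower, where 18.8% and 17.7% of all genes were, and the median log2 fold change was 0.61 against 0.00 for all genes. Their summed level was 1204 to 1216 CPM at day 1.5 and 1791 to 1818 CPM at day 2.5. A retinoic acid response element is classically a pair of half-sites in the same direction, 5 bases apart. Among promoter windows from RefSeq (GRCm38.p6, 250 bases before to 50 after the start of each gene), 13 of the 18 targets had a window and 2 of these, Rarb and Cyp26a1, held such a pair on either strand, each half-site being AGGTCA, its variant AGTTCA, the form GGTTCA or the form GGGTCA. Of 27025 genes with a window, 31 (0.115%) held one. Pairs with a spacer of 2 bases were in 0 of the 13 and in 84 genes (0.311%). The 2 windows are shown because both genes are classical targets and both rose, with the half-sites in capitals.
Rarb promoter, chr14:16575427-16575726, minus strand: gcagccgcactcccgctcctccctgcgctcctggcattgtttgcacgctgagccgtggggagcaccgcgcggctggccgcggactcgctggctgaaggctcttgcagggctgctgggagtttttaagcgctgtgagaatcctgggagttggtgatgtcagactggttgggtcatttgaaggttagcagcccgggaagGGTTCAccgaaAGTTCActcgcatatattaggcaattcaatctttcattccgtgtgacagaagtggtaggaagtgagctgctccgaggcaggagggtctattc
Cyp26a1 promoter, chr19:37697558-37697857, plus strand: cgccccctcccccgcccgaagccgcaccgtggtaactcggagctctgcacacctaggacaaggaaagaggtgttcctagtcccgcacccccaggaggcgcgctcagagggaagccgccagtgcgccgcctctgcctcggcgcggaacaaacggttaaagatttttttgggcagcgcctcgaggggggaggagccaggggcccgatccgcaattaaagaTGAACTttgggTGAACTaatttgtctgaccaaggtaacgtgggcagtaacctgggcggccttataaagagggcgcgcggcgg
In the Rarb window the pair begins 53 bases before the start and reads in the direction of the gene, and in the Cyp26a1 window it begins 32 bases before the start and reads on the opposite strand. A match of letters is a description and not a bound site.

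Rarb was at 16.3, 15.9 and 16.2 CPM at day 1.5 and 23.6, 25.5 and 25.6 CPM at day 2.5, a change of 0.62 ± 0.09 (adjusted p 7.32e-07). Cyp26a1 was at 74.6, 71.5 and 68.6 CPM at day 1.5 and 90.5, 92.6 and 95.6 CPM at day 2.5, a change of 0.38 ± 0.05 (2.73e-08). In both, the lowest library of day 2.5 was above the highest of day 1.5. Stra8, a gene that germ cells need for meiosis and that retinoic acid switches on (chromosome 6, 34920163 to 34939344), was at 50.96, 51.5 and 54.03 CPM at day 1.5 and 229.5, 227 and 236 CPM at day 2.5. Its libraries of day 2.5 were 4.42-fold higher (2.14 ± 0.06, adjusted p 9.02e-29), the largest called change in the list. The retinol transporter gene Stra6 was at 40.99, 38.8 and 36.4 CPM at day 1.5 and 132, 141 and 143 CPM at day 2.5 (1.84 ± 0.06, adjusted p 2.78e-24). The binding protein gene Crabp2 was at 24.4, 22.5 and 21.2 CPM at day 1.5 and 60.04, 62.9 and 62.2 CPM at day 2.5 (1.45 ± 0.08, 4.02e-19). The days did not overlap for either gene. Rec8, a meiotic cohesin, rose from 24.2 to 40.01 CPM (0.72 ± 0.08), Dhrs3, which returns retinal to retinol, from 81.9 to 122 CPM (0.58 ± 0.06), and the homeobox gene Cdx1 from 4.87 to 12.03 CPM (1.30 ± 0.12). Cyp26b1 was the member called lower, at 128, 131 and 126 CPM at day 1.5 and 92.7, 97.3 and 95.7 CPM at day 2.5 (-0.43 ± 0.07, adjusted p 1.67e-06), so that the Cyp26 enzymes did not move in 1 direction. Tgm2 (-0.11 ± 0.06, adjusted p 0.166) and Nrip1 (0.04 ± 0.10, 0.831) did not pass the test.

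Genes of retinoid supply and reception were split. Of 17 measured, 5 were called higher and 5 lower, where 18.8% and 17.7% of all genes were, with a median near 0. Beside Aldh1a3, the retinol dehydrogenase genes Rdh10 (18.3 to 34.3 CPM, 0.91 ± 0.07) and Rdh11 (52.8 to 70.5 CPM, 0.42 ± 0.05) rose. Rarg, the receptor that CD1530 activates, was at 143, 143 and 135 CPM at day 1.5 and 106, 112 and 111 CPM at day 2.5. Its libraries of day 2.5 were all lower (-0.36 ± 0.05, adjusted p 5.04e-08). The retinol carrier gene Rbp4 (4.63 to 1.76 CPM, -1.39 ± 0.20) and Crabp1 (136 to 92.8 CPM, -0.55 ± 0.08) fell, while the corepressor gene Ncor1 (-0.03 ± 0.12, adjusted p 0.868) did not pass the test.

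Hox genes, whose products give cells their position along the trunk, were called higher most often in the B cluster. Of its 10 measured genes 8 were called higher and 0 lower (median 0.84), against 6 and 0 of 11 in the A cluster (0.41), 2 and 1 of 9 in the C cluster (0.28) and 1 and 1 of 8 in the D cluster (-0.10). Hoxb6 (chromosome 11, 96292476 to 96301569) was at 3.92, 3.99 and 3.21 CPM at day 1.5 and 18.8, 17.6 and 20.5 CPM at day 2.5. Hoxb1 (chromosome 11, 96365752 to 96368256) was at 7.79, 8.57 and 10.01 CPM at day 1.5 and 38.9, 37.5 and 38.4 CPM at day 2.5. Hoxb8 was at 6.26, 7.23 and 7.71 CPM at day 1.5 and 27.7, 27.2 and 26.7 CPM at day 2.5. The days were separate for all of them, with changes of 2.36 ± 0.13, 2.11 ± 0.11 and 1.94 ± 0.11 (adjusted p 2.90e-18, 5.82e-19 and 2.19e-18). Hoxb2 (0.95 ± 0.13), Hoxb7 (0.89 ± 0.15), Hoxb5 (0.78 ± 0.08), Hoxb9 (0.73 ± 0.11) and Hoxb4 (0.67 ± 0.08) were called higher as well. Hoxb3 (0.14 ± 0.11, adjusted p 0.356) and Hoxb13 (-0.08 ± 0.36, 0.896) did not pass the test, the latter at no more than 19 counts in a library of day 1.5. In the A cluster the called genes included Hoxa5 (0.89 ± 0.07, adjusted p 5.18e-13), Hoxa4 (0.72 ± 0.13), Hoxa7 (0.57 ± 0.15), Hoxa3 (0.55 ± 0.08) and Hoxa2 (0.24 ± 0.09, adjusted p 0.0274, a call lost with DESeq2, with library size alone and without day 1.5 replicate 2 or 3 or day 2.5 replicate 1 or 3, at adjusted p 0.0508 to 0.151). Hoxa9 (-0.09 ± 0.21) and Hoxa10 (-0.13 ± 0.16) were among those that did not pass the test. In the C cluster Hoxc5 (3.09 to 12.6 CPM, 2.03 ± 0.13) and Hoxc4 (5.08 to 15.1 CPM, 1.58 ± 0.12) rose and Hoxc10 (2.85 to 1.90 CPM, -0.58 ± 0.19) fell, a call lost without day 1.5 replicate 2 (adjusted p 0.102). Neighbouring Hox genes overlap in places and the strand setting of the counting is not stated, so reads of overlapping transcripts cannot be told apart.

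**Figure D3:**
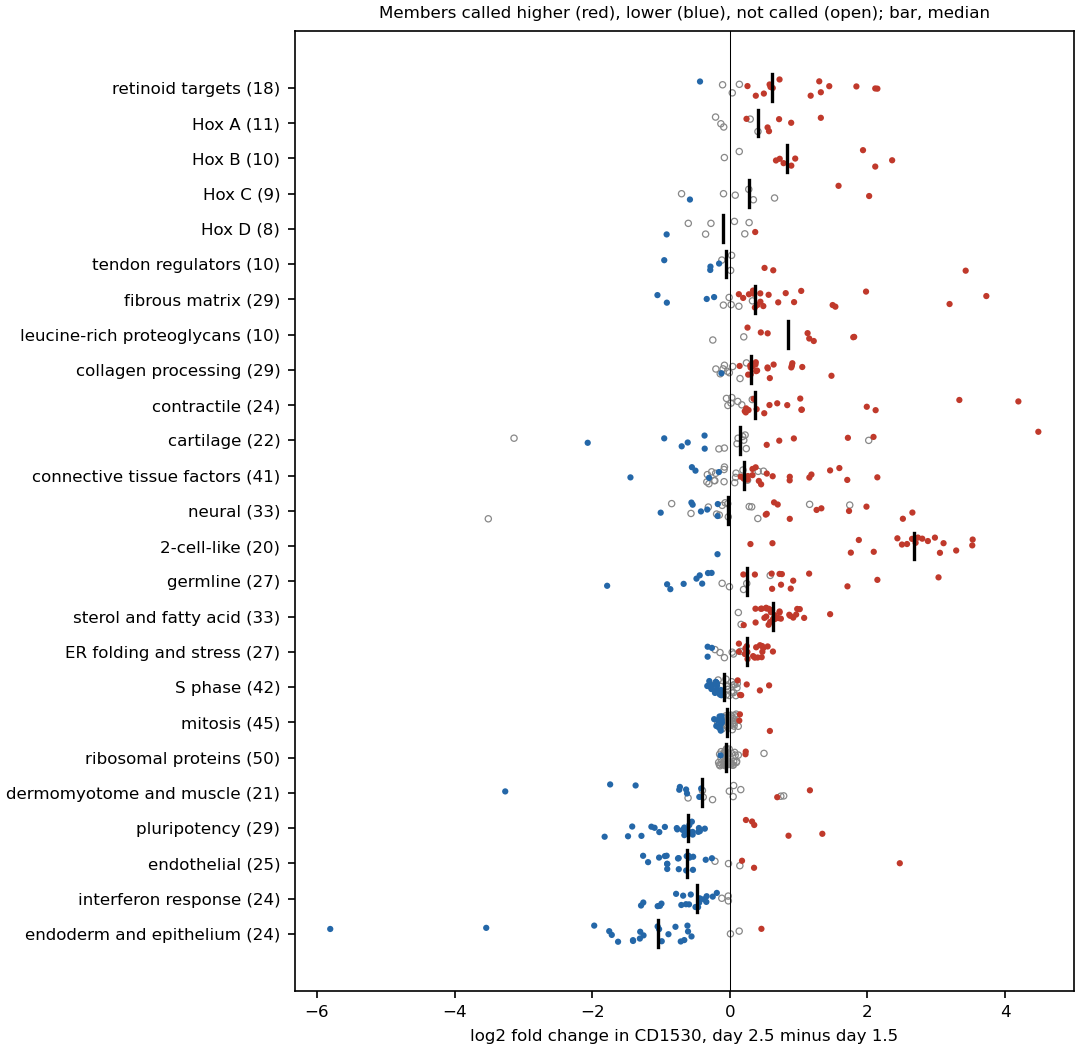
Log2 fold change from day 1.5 to day 2.5 in CD1530 (x axis) of the members of 25 gene lists (rows, with the number measured), called higher in red, called lower in blue and not called as open circles, with the list median as a bar. The 2-cell-like list has the highest median (2.67) and the endoderm and epithelial list the lowest (-1.04), while the S phase, mitosis and ribosomal lists sit near 0.

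Tendon regulators did not move together. Of 10 measured genes 3 were called higher and 4 lower, where 18.8% and 17.7% of all genes were. Scx, the transcription factor of tendon progenitors, was at 775, 770.2 and 754 CPM at day 1.5 and 1171, 1199 and 1190.4 CPM at day 2.5. The days did not overlap, and the level at day 2.5 was 1.55-fold higher (0.63 ± 0.04, adjusted p 3.91e-17). Tnmd, a marker of later tendon cells, was at 0.218, 0.185 and 0.173 CPM at day 1.5 and 1.62, 1.97 and 2.77 CPM at day 2.5, higher in every library of day 2.5 (3.43 ± 0.41, adjusted p 5.39e-09) but with at most 4 counts in a library of day 1.5. Mkx, a homeobox gene of tendon maturation, was at 21.7, 23.5 and 22.3 CPM at day 1.5 and 23.2, 23.5 and 21.4 CPM at day 2.5. Its libraries overlapped between the days, and its change of 0.01 ± 0.09 (adjusted p 0.939) did not pass the test. Eya2 rose (3.76 to 5.36 CPM, 0.50 ± 0.14). The FGF-responsive factor genes Etv5 (279 to 144 CPM, -0.95 ± 0.04) and Etv4 (96.5 to 79.2 CPM, -0.28 ± 0.04), Eya1 (-0.28 ± 0.09) and Egr1 (-0.16 ± 0.05, adjusted p 0.0173) fell. The call of Egr1 was lost without day 1.5 replicate 3 or day 2.5 replicate 1 or 2 (adjusted p 0.0601 to 0.0637). Six2 (0.03 ± 0.20, adjusted p 0.941) did not pass the test.

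Genes of the fibrous matrix mostly rose. Of 29 measured, 20 were called higher and 4 lower, with a median of 0.36, and the summed level was 19147 to 20961 CPM at day 1.5 and 25579.5 to 26598 CPM at day 2.5. Eln, the elastin gene (chromosome 5, 134702593 to 134747323), was at 22.9, 18.1 and 18.8 CPM at day 1.5 and 182, 179 and 184 CPM at day 2.5, 9.15-fold higher with no overlap (3.19 ± 0.06, adjusted p 1.52e-35). Fbln5, which helps elastin assemble, rose from 14.96 ± 0.276 to 59.1 ± 2.92 CPM (SD, n = 3; 1.98 ± 0.07). Tnc was at 572, 640.1 and 629.6 CPM at day 1.5 and 1729.6, 1780.0 and 1825 CPM at day 2.5. Postn, which like tenascin-C is a matricellular protein of tendon and ligament, was at 210.5, 224 and 201 CPM at day 1.5 and 597, 608 and 583 CPM at day 2.5. All libraries of day 2.5 were higher for both (1.53 ± 0.11, adjusted p 6.34e-11, and 1.49 ± 0.09, 6.40e-13). The type I collagen chains changed less, with Col1a2 at 1715, 1867 and 1724 CPM at day 1.5 and 2345, 2459.8 and 2417 CPM at day 2.5 (0.44 ± 0.07, adjusted p 1.92e-05). Col1a1 was at 3536, 3969 and 3575 CPM at day 1.5 and 4321, 4573 and 4539 CPM at day 2.5, again without overlap (0.28 ± 0.10, adjusted p 0.0291), and this call was lost with library size alone (adjusted p 0.0579) and without day 1.5 replicate 1 or 3 or day 2.5 replicate 2 or 3 (0.0721 to 0.0994). Col3a1 was at 2890.3, 2919.8 and 2829 CPM at day 1.5 and 2846, 2955 and 2956 CPM at day 2.5, overlapped between the days and did not pass the test (0.02 ± 0.04, adjusted p 0.755). Tgfbi, a collagen-binding matrix protein that TGFβ induces, was at 828, 835 and 806 CPM at day 1.5 and 379.7, 411 and 400.0 CPM at day 2.5. It fell by 1.05 on the log2 scale (adjusted p 1.31e-26), the largest fall in the list. Comp (1.32 to 0.688 CPM, -0.92 ± 0.30), Col5a3 (180.3 to 143 CPM, -0.34 ± 0.11) and Thbs3 (30.6 to 26.2 CPM, -0.23 ± 0.07) were the other members called lower, and their calls were lost without single libraries, Comp without day 1.5 replicate 1 or 2 or day 2.5 replicate 3 (adjusted p 0.0514 to 0.103), Col5a3 without day 1.5 replicate 2 or day 2.5 replicate 1 (0.0700 to 0.0753) and Thbs3 without day 2.5 replicate 2 (0.0974). The hyaluronan-binding proteoglycan gene Vcan, which is not on this list, went from 500.0 ± 41.04 to 664 ± 13.9 CPM (0.41 ± 0.14, adjusted p 0.0218), a call lost without day 1.5 replicate 1 or day 2.5 replicate 1 or 3 (adjusted p 0.0517 to 0.0979).

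Small leucine-rich proteoglycans, which bind collagen fibrils and set their width, rose in 8 of 10 measured members, and 0 were called lower (median 0.84). Fmod (fibromodulin) was at 43.3, 41.6 and 41.1 CPM at day 1.5 and 145, 147 and 148 CPM at day 2.5. Dcn (decorin) was at 191, 194 and 189 CPM at day 1.5 and 423, 423 and 411 CPM at day 2.5. Neither overlapped between the days, and the changes were 1.81 ± 0.07 (adjusted p 7.83e-20) and 1.13 ± 0.05 (3.41e-19). Ogn rose from 16.6 to 57.8 CPM (1.79 ± 0.06), Epyc from 4.35 to 10.1 CPM (1.22 ± 0.15), Aspn from 0.636 to 1.45 CPM (1.15 ± 0.32) and Bgn from 697 to 833 CPM (0.26 ± 0.05). Chad (0.20 ± 0.16, adjusted p 0.336) and Podn (-0.25 ± 0.21, 0.391) did not pass the test. Of 29 genes of collagen modification, folding and export, 19 were called higher and 1 lower (median 0.30). Among them Lox, the lysyl oxidase that crosslinks collagen, was at 178, 202 and 169 CPM at day 1.5 and 390.2, 379.6 and 367 CPM at day 2.5 (1.05 ± 0.11, adjusted p 1.77e-08). The lysyl hydroxylase gene Plod2 was at 256, 269 and 264 CPM at day 1.5 and 504, 492 and 485 CPM at day 2.5 (0.91 ± 0.04, 2.00e-23), with the days apart for both. The procollagen protease gene Tll1 rose from 39.5 to 110.1 CPM (1.48 ± 0.07) and P4ha3 from 17.97 to 33.5 CPM (0.90 ± 0.07), whereas Plod1 was called lower (-0.12 ± 0.05, adjusted p 0.0339), a call lost without day 1.5 replicate 1 or 2 or without any 1 library of day 2.5 (adjusted p 0.0614 to 0.159).

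The cartilage list split evenly, with 6 of 22 measured genes called higher and 6 lower (median 0.15), where 18.8% and 17.7% of all genes were. Among these calls Clec3a was counted higher although no library of either day held more than 3 of its reads, and without the 3 members at that floor on both days (Clec3a and, named for their counts, Cnmd and Cytl1) the median was 0.12. The transcription factors of the chondrogenic programme were among those that fell. Sox9 was at 96.4, 106 and 97.9 CPM at day 1.5 and 76.2, 79.1 and 77.2 CPM at day 2.5, a change of -0.37 ± 0.05 (adjusted p 7.86e-08), and its partners Sox6 (19.9 to 10.3 CPM, -0.95 ± 0.10) and Sox5 (10.03 to 6.16 CPM, -0.70 ± 0.11) fell further. Col2a1, the main collagen of cartilage, was at 385, 394 and 380.0 CPM at day 1.5 and 289.9, 303 and 307 CPM at day 2.5. Hapln1, which links aggrecan to hyaluronan, was at 10.5, 8.99 and 9.71 CPM at day 1.5 and 2.85, 2.08 and 2.00 CPM at day 2.5. In both, every library of day 2.5 was below every library of day 1.5 (-0.37 ± 0.04, adjusted p 3.13e-09, and -2.07 ± 0.14, 2.15e-15). Col9a1 fell too (51.6 to 33.8 CPM, -0.61 ± 0.05). Acan was at 5.93, 5.19 and 5.20 CPM at day 1.5 and 5.92, 6.01 and 7.07 CPM at day 2.5, with overlapping days, and did not pass the test (0.22 ± 0.12, adjusted p 0.162). Col11a1 (115 to 219 CPM, 0.93 ± 0.05), a collagen of cartilage and of early fibrous tissue, and Matn4 (2.34 to 7.69 CPM, 1.72 ± 0.16, adjusted p 2.40e-11) rose. Of the sclerotome regulators, Pax9 was called higher (7.98 to 10.3 CPM, 0.38 ± 0.11, adjusted p 0.00546) although its libraries overlapped and the call was lost without day 2.5 replicate 2 (0.24, adjusted p 0.122), and Pax1 was not called (7.79 to 9.32 CPM, 0.26 ± 0.12, adjusted p 0.0814).

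Contractile and actin-binding genes rose, with 17 of 24 called higher and 0 lower (median 0.37). Acta2, the smooth muscle actin that also marks contractile fibroblasts, was at 119.7, 121 and 119 CPM at day 1.5 and 517, 524 and 521 CPM at day 2.5, 4.34-fold higher with no overlap (2.12 ± 0.05, adjusted p 1.55e-32). Myh11, the smooth muscle myosin heavy chain, was at 0.980, 1.02 and 0.780 CPM at day 1.5 and 7.93, 9.90 and 10.3 CPM at day 2.5. The calponin gene Cnn1 was at 2.94, 2.69 and 2.82 CPM at day 1.5 and 10.5, 11.3 and 11.7 CPM at day 2.5. They were low at day 1.5 and higher in each library of day 2.5 (3.34 ± 0.22, adjusted p 2.41e-16, and 1.99 ± 0.14, 4.24e-15). The nonmuscle myosins Myh9 (0.03 ± 0.06, adjusted p 0.764) and Myh10 (0.17 ± 0.09, 0.148) did not pass the test. Actg2, Acta2 and Actc1 encode nearly identical actins, and how reads with several alignments were counted is not stated, so their shares are uncertain.

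**Figure D4:**
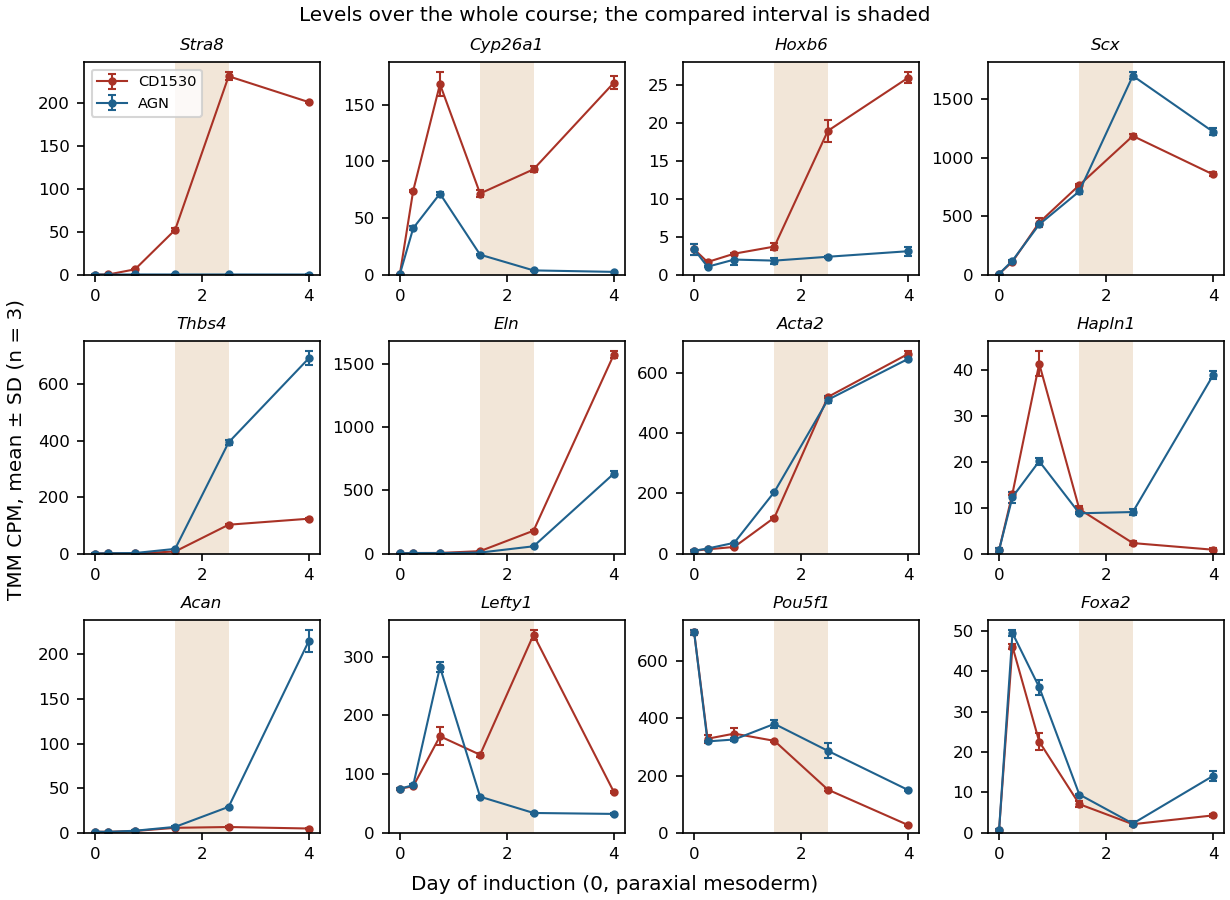
TMM CPM (y axes, from 0; mean ± SD, n = 3) of 12 genes in PM (day 0) and on each day of induction (x axes) with CD1530 (red) or AGN (blue), with day 1.5 to day 2.5 shaded. Within the shaded day Stra8 and Hoxb6 climb in CD1530 and stay below 3 CPM in AGN, Scx and Thbs4 climb further in AGN, and Acan leaves its low level in AGN while CD1530 stays at about 6 CPM.

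Signalling genes moved in both directions, where 18.8% of all genes were called higher and 17.7% lower. Of 23 TGFβ pathway genes 14 were called higher and 5 lower. The ligand gene Tgfb3 was at 76.9, 70.8 and 74.7 CPM at day 1.5 and 118, 122 and 122 CPM at day 2.5 (0.70 ± 0.05, adjusted p 1.02e-14), higher on day 2.5 in every library, while Tgfb2 (66.2 to 55.2 CPM, -0.26 ± 0.05), the feedback inhibitor gene Smad7 (71.9 to 54.8 CPM, -0.39 ± 0.06) and Inhba (88.9 to 63.9 CPM, -0.48 ± 0.09) fell. The latent TGFβ binding protein gene Ltbp1 rose from 73.1 to 118 CPM (0.69 ± 0.05). Of 15 hedgehog pathway genes 5 were called higher and 2 lower, and the readouts Gli1 (24.6 to 31.9 CPM, 0.37 ± 0.08, adjusted p 1.04e-04) and Ptch1 (159 to 197 CPM, 0.31 ± 0.08, 0.00223) rose. In the FGF list 8 of 28 were called higher and 9 lower. Fgf18 (4.23 to 11.4 CPM, 1.44 ± 0.14), Fgf9 (0.629 to 1.98 CPM, 1.66 ± 0.30) and Fgf1 (1.104 to 3.29 CPM, 1.58 ± 0.29) rose, and Fgf4 (92.7 to 38.05 CPM, -1.28 ± 0.05), Fgf5 (5.09 to 1.83 CPM, -1.48 ± 0.17) and the feedback inhibitor gene Spry2 (85.2 to 58.2 CPM, -0.55 ± 0.04) fell. The Wnt list had 13 called higher and 11 lower of 34, with the antagonist gene Sfrp5 showing the largest fall, from 27.95 to 6.66 CPM (-2.07 ± 0.09, adjusted p 1.61e-22), and Wnt11 rising from 8.51 to 17.1 CPM (1.01 ± 0.10). In the BMP list these counts were 8 and 10 of 28, with Bmp6 higher (3.73 to 12.1 CPM, 1.71 ± 0.17) and Bmp2 lower (26.8 to 11.6 CPM, -1.20 ± 0.07).

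Transcription factors of connective tissue were called higher in 19 of 41 and lower in 5, where 18.8% and 17.7% of all genes were. Wt1, a factor of mesothelium and of some connective tissue progenitors, was at 6.21, 6.63 and 4.51 CPM at day 1.5 and 19.9, 17.1 and 19.4 CPM at day 2.5 (1.71 ± 0.22, adjusted p 2.43e-07). Every library of day 2.5 was higher. Lhx2 rose from 0.539 to 2.47 CPM (2.14 ± 0.33) and Osr2 from 0.548 to 1.58 CPM (1.46 ± 0.39), whereas Gata4 (8.52 to 3.13 CPM, -1.44 ± 0.13) and Nr2f1 (15.6 to 10.98 CPM, -0.50 ± 0.09) fell. Neural genes were called higher in 11 and lower in 7 of 33, with a median of -0.02, or 0.19 with 4 members at the counting floor set to their bound or left out. Sox1, a factor of neural progenitors, was at 5.50, 5.33 and 4.68 CPM at day 1.5 and 28.7, 31.3 and 28.4 CPM at day 2.5, 5.72-fold higher without overlap (2.52 ± 0.13, adjusted p 4.06e-19). Sox3 (5.46 to 18.1 CPM, 1.73 ± 0.10), the acetylcholine receptor gene Chrna3 (0.375 to 2.34 CPM, 2.65 ± 0.35) and Ptprz1 (2.16 to 8.47 CPM, 1.99 ± 0.16) rose, and Sox2 (254 to 175 CPM, -0.54 ± 0.04) and Mapt (8.24 to 5.61 CPM, -0.56 ± 0.13) fell. The study names Sox2 as a pluripotency gene as well, and pluripotency genes mostly fell, as given below.

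Genes of the 2-cell-like state, a rare and transient state of mESCs that resembles the 2-cell embryo, were called higher in 19 of 20 measured members and lower in 1, with a median of 2.67. Their levels were low. Zscan4d (chromosome 7, 11161374 to 11166159) was at 2.56, 1.62 and 1.69 CPM at day 1.5 and 13.7, 12.4 and 14.3 CPM at day 2.5. Zscan4c was at 1.25, 1.58 and 1.603 CPM at day 1.5 and 11.2, 10.1 and 8.43 CPM at day 2.5. Zscan4e was at 0.817, 1.16 and 1.30 CPM at day 1.5 and 8.77, 8.99 and 6.72 CPM at day 2.5. No library of day 1.5 reached the lowest of day 2.5 for any of them, and the changes were 2.80 ± 0.19, 2.73 ± 0.23 and 2.88 ± 0.24 (adjusted p 1.96e-14, 3.28e-12 and 1.53e-12). Tmem92 rose from 0.406 to 3.59 CPM (3.11 ± 0.35), while Eif1a, the member called lower, went from 174 to 154 CPM (-0.18 ± 0.03). The Zscan4, Usp17l and Pramef genes are families of near-identical copies, so the split of reads among their members is uncertain and they are not independent of each other. Germline genes were mixed, with 13 higher and 9 lower of 27, where 18.8% and 17.7% of all genes were. Izumo1r, the egg receptor for sperm, rose from 0.632 to 5.24 CPM (3.03 ± 0.24) and Piwil4 from 2.36 to 7.71 CPM (1.71 ± 0.19). The primordial germ cell genes Nanos3 (3.17 to 0.922 CPM, -1.78 ± 0.26), Tfap2c (104 to 57.2 CPM, -0.86 ± 0.05) and Prdm1 (37.2 to 23.4 CPM, -0.67 ± 0.09) fell.

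Pluripotency genes fell in 24 of 29 and rose in 5 (median -0.61). Pou5f1, a core factor, was at 323, 318 and 324 CPM at day 1.5 and 146, 155 and 151 CPM at day 2.5 (-1.09 ± 0.05, adjusted p 3.58e-22). Otx2, a factor of the primed epiblast, was at 14.4, 15.2 and 12.3 CPM at day 1.5 and 3.80, 3.41 and 4.72 CPM at day 2.5 (-1.82 ± 0.11, 3.91e-17). The days did not overlap for either. Nanog (209.9 to 133 CPM, -0.66 ± 0.04), Zfp42 (36.3 to 24.8 CPM, -0.55 ± 0.06) and Dppa3 (34.1 to 12.8 CPM, -1.42 ± 0.08) fell as well. The Nodal antagonist genes went the other way. Lefty1 was at 131, 137 and 131 CPM at day 1.5 and 331, 335 and 348 CPM at day 2.5. Lefty2 was at 103, 96.5 and 100.05 CPM at day 1.5 and 179.9, 176 and 186 CPM at day 2.5, with every library of day 2.5 higher (1.34 ± 0.04, adjusted p 2.89e-26, and 0.85 ± 0.04, 7.38e-21). Lin28a (0.32 ± 0.04), Lin28b (0.35 ± 0.08) and, named only to complete the members called higher, Nodal (0.23 ± 0.06) rose as well.

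Endoderm, endothelial and muscle genes fell more often than they rose over the same day. Endoderm and epithelial genes were called lower in 21 of 24 and higher in 1 (median -1.04), and their summed level was 1155 to 1176 CPM at day 1.5 and 626 to 646 CPM at day 2.5. The pioneer factor gene Foxa2 was at 6.15, 7.60 and 7.45 CPM at day 1.5 and 2.12, 2.29 and 1.89 CPM at day 2.5 (-1.75 ± 0.15, adjusted p 9.85e-13), while its relative Foxa1 was called higher (16.97 to 23.4 CPM, 0.46 ± 0.09). Endothelial genes were called lower in 19 of 25 and higher in 3 (median -0.63). Pecam1 was at 141, 138 and 136 CPM at day 1.5 and 83.6, 83.9 and 79.1 CPM at day 2.5 (-0.75 ± 0.05, adjusted p 2.87e-16). The capillary gene Plvap was at 90.97, 91.95 and 88.2 CPM at day 1.5 and 39.4, 39.96 and 39.6 CPM at day 2.5 (-1.19 ± 0.06, 5.81e-19). Both were lower in every library of day 2.5, whereas Lyve1, a gene of lymphatic endothelium and some macrophages, rose (0.899 to 5.04 CPM, 2.47 ± 0.26). Dermomyotome and muscle genes were called lower in 9 of 21 and higher in 2, with Myog (1.63 to 0.485 CPM, -1.74 ± 0.33) and Actc1 (7.72 to 3.00 CPM, -1.37 ± 0.15) among those lower. The presomitic and tailbud list was mixed, with 7 called higher and 6 lower of 29, where 18.8% and 17.7% of all genes were. In it Sp8 (2.27 to 6.03 CPM, 1.39 ± 0.20) and Evx1 (1.66 to 3.47 CPM, 1.05 ± 0.18) rose and the mesoderm factor gene T fell (6.88 to 2.05 CPM, -1.75 ± 0.13). These falls and the higher tendon markers were measured in the same libraries, and the part of a changed mixture of cells in either was not tested. Myf5, Foxd3 and Hbb-bs were not analysed here.

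Interferon response genes fell without an exception among those called: 21 of 24 were called lower and 0 higher by edgeR (median -0.48). Rsad2, an antiviral enzyme, was at 125, 121 and 126 CPM at day 1.5 and 52.3, 52.6 and 46.8 CPM at day 2.5. Ifit3 was at 138, 139 and 134 CPM at day 1.5 and 61.3, 52.5 and 57.7 CPM at day 2.5. All libraries of day 2.5 were below those of day 1.5 (-1.29 ± 0.04, adjusted p 1.51e-25, and -1.26 ± 0.05, 1.10e-23). Ifit1 fell from 195 to 94.3 CPM (-1.05 ± 0.04), and Irf1 (-0.12 ± 0.05, adjusted p 0.0754) and Irf9 (-0.02 ± 0.05, 0.782) did not pass the test.

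Sterol and fatty acid synthesis genes were called higher in 31 of 33 and lower in 0, with a median of 0.63. The stearoyl-CoA desaturase gene Scd2 was at 1239, 1267 and 1247 CPM at day 1.5 and 2504, 2525 and 2563 CPM at day 2.5. Scd1 was at 202, 197 and 202 CPM at day 1.5 and 389, 401 and 395 CPM at day 2.5. The days did not overlap for either (1.02 ± 0.04, adjusted p 6.94e-25, and 0.98 ± 0.05, 1.98e-20). Ebp (0.16 ± 0.07, adjusted p 0.0693) and Elovl6 (0.12 ± 0.06, 0.08) did not pass the test. Of 27 genes of the unfolded protein response and the amino acid response 18 were called higher and 3 lower. The chaperone gene Hspa5 was at 979, 959 and 933 CPM at day 1.5 and 1367, 1338 and 1321 CPM at day 2.5 (0.49 ± 0.03, adjusted p 3.40e-18). The members called lower were Asns (254 to 203 CPM, -0.32 ± 0.04), Trib3 and Chac1. Cell cycle genes were called lower more often than higher, by small amounts. In the S phase list 6 of 42 were called higher and 18 lower (median -0.08), and in the mitosis list 3 and 13 of 45 (-0.05), where 18.8% of all genes were called higher and 17.7% lower. Mki67 was at 266, 272 and 282 CPM at day 1.5 and 274, 286 and 289 CPM at day 2.5, with overlapping days (0.05 ± 0.14, adjusted p 0.82). In a mixed list of D cyclins, inhibitors of cyclin-dependent kinases, Myc genes and p53 targets, 15 of 28 were called higher and 4 lower. Cdkn2b was higher (93.1 to 148 CPM, 0.67 ± 0.05) and Mycn, a driver of proliferation, lower (98.2 to 44.6 CPM, -1.14 ± 0.05, adjusted p 6.84e-23). The other members called lower were Ccnd1, Ccnd3 and Myc, while Mycl was among those called higher.

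The same day in AGN shares no library with the CD1530 step, and the difference between the steps was tested by an interaction. In AGN 7203 genes (42.1%) were called, 3668 higher (21.4%) and 3535 lower (20.6%). With library size alone 2461 were higher and 5176 lower. Of the 3227 genes called higher in CD1530, 2135 (66.2% of these, 58.2% of those called higher in AGN) were also called higher in AGN and 116 were called lower there. Of the 3026 called lower in CD1530, 2033 (67.2%, and 57.5% of those in AGN) were also called lower and 79 higher. The steps differed for 1972 genes (11.5%), 843 with the higher change in CD1530 (4.92%) and 1129 with the lower (6.59%). This split turned with the scaling, since library size alone gave 1140 and 839.

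Among retinoid targets the step in CD1530 was called above that in AGN for 13 of 18 and below it for 2, and in the Hox B cluster for 8 and 0 of 10. These counts are not independent, since Hoxb1 is a member of both lists. It counts in both although it was at the counting floor in AGN at day 2.5. Cyp26a1 went from 17.6 to 3.76 CPM in AGN, so the steps differed by 2.63 ± 0.10 (log2, SE; adjusted p 2.57e-23). The difference was 1.61 ± 0.14 for Stra6, 1.23 ± 0.12 for Crabp2 and 2.00 ± 0.25 for Hoxb6. Rarg, which fell in CD1530, was at 78.4 to 85.1 CPM in AGN (difference -0.48 ± 0.07, adjusted p 1.40e-06). The neural gene Sox1 went from 2.13 to 0.753 CPM in AGN (difference 3.94 ± 0.29), Wt1 from 2.47 to 2.78 CPM (1.56 ± 0.38) and Lefty1 from 61.4 to 33.6 CPM (2.21 ± 0.07, adjusted p 1.30e-26). Of the genes with the largest positive differences, Hoxb1, Zscan4c, Cdx1 and Srms were at the counting floor (at most 3 counts in every library) on a day in AGN and are given no value, and Chit1, Gpr20 and Csn3 were below 2 CPM there on both days.

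**Figure D5:**
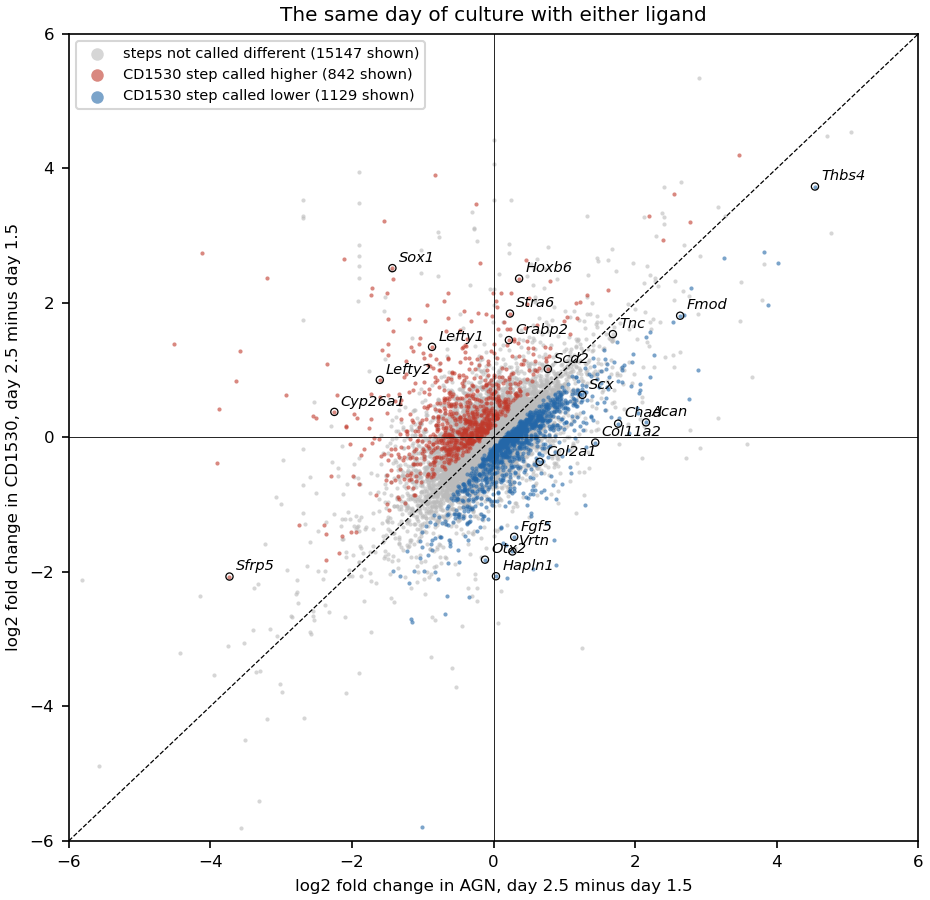
Log2 fold change from day 1.5 to day 2.5 in CD1530 (y axis) against that in AGN (x axis), with genes whose steps were called different in red (higher in CD1530) or blue (lower) and the dashed line where the steps are equal. The plot leaves out 2 genes beyond 6 on either axis; Sox1, Hoxb6 and Stra6 lie above the line and Acan, Hapln1 and Otx2 below it.

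Cartilage genes showed the opposite difference, with the step in CD1530 called below that in AGN for 14 of 22 and above it for 0. Acan went from 6.49 to 28.95 CPM in AGN (2.15 ± 0.09, adjusted p 2.45e-22), a difference of -1.93 ± 0.16 (adjusted p 2.03e-12). Col2a1 went from 596 to 936 CPM in AGN (-1.02 ± 0.06), Hapln1 from 8.81 to 9.08 CPM (-2.10 ± 0.18), Chad from 6.43 to 21.9 CPM (-1.56 ± 0.19), Col11a2 from 5.29 to 14.2 CPM (-1.51 ± 0.22) and Sox9 from 106 to 114 CPM (-0.48 ± 0.07). Several tendon and fibrous matrix genes that rose in CD1530 rose further in AGN. Scx went from 713 to 1701 CPM in AGN (1.25 ± 0.04), a difference of -0.62 ± 0.05 (adjusted p 1.67e-11), Thbs4 from 16.9 to 394 CPM (-0.81 ± 0.11), Fmod from 97.7 to 607 CPM (-0.83 ± 0.09) and Postn from 239 to 1059.8 CPM (-0.65 ± 0.12). Tnmd (0.496 to 4.62 CPM in AGN) and Mkx (14.6 to 16.5 CPM) were not called different between the steps, which does not show that they moved alike. The contractile list had the other sign, with 7 of 24 called above AGN and 0 below, among them Acta2, which went from 205 to 511 CPM in AGN (0.80 ± 0.06, adjusted p 6.40e-13). Otx2 (85.8 to 78.8 CPM in AGN, -1.70 ± 0.13), Fgf5 (20.9 to 25.5 CPM, -1.77 ± 0.19) and the presomitic gene Vrtn (37.6 to 45.2 CPM, -1.96 ± 0.17) were called lower in CD1530 and had changes of -0.12 ± 0.06, 0.29 ± 0.08 and 0.27 ± 0.07 in AGN. The sterol list rose in both, with 32 of 33 called higher in AGN and 3 called different.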

How the data were processed

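RNA was measured by paired-end bulk RNA-seq in 33 libraries of 11 groups. Per the labels and the study's methods, the authors aligned reads to GRCm38 with STAR and counted them with featureCounts. Its strand setting, its handling of reads with several alignments and the gene annotation are not given in the sources used here. The deposited values were whole-number counts per gene for 17120 genes, not normalized. Each Ensembl identifier was matched to GENCODE M21 (GRCm38) for coordinates, and 17120 matched. No library column was left unmapped.

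From these counts, edgeR 4.0.16 (R 4.3.3) was run with TMM scaling, filterByExpr, which removed 0 genes, and a robust quasi-likelihood fit with 1 mean for each of the 11 groups (22 residual degrees of freedom). Day 2.5 was compared with day 1.5 in CD1530 and in AGN, and the interaction tested the difference between these steps. P-values were adjusted by Benjamini-Hochberg over all genes, calls were made at 0.05, and ± after a log2 fold change is its SE. Levels are TMM-scaled CPM. No log2 fold change is read for a gene with at most 3 counts in every library of both days. The totals per library limit the precision of low genes, and intervals were not formed from single libraries.

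Counts were simulated for 17059 genes, with 200 genes, none of very low level, changed in the CD1530 group of day 2.5 and no other change. In the CD1530 comparison 161 of the 200 changed genes were recovered with 6 false calls. In the data 36.5% of genes were called, so these rates may not carry over. By fold, 22 of 50 were recovered at 1.25, 40 of 50 at 1.5, 50 of 50 at 2 and 49 of 50 at 4. In the interaction 146 of 200 were recovered with 3 false calls.

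The members of the 46 gene lists and the genes named were chosen with earlier results of these data known, so lists are described by counts and medians without a test of their own. Lists overlap where a gene has several roles, so their counts are not independent of each other. Named genes were fixed markers, the 10 largest called changes in each direction averaging 50 counts or more over the 6 libraries whose days did not overlap (without predicted genes and genes at the floor), the 8 largest interaction values in each direction, and up to 4 members called in each direction and 2 not called for each list. Lists of at most 12 members may be named in full, and exceptions are marked. Alternatives were DESeq2 1.42.0, DESeq2 size factors, library size alone, other filters, a fit that is not robust, a likelihood ratio test, a fit of the compared groups only, a replicate block, a minimum change and leaving out each compared library. RefSeq promoter windows (GRCm38.p6) were searched by exact letters on both strands. Some genes are not reported here. Other groups of the series entered through the filter, the TMM scaling, the shared estimate of the spread, the levels of the simulation and the plot of levels over time.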

Additional observations from a re-analysis of the deposited data

Results flagged for a closer look

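The change from day 1.5 to day 2.5 differed between CD1530 and AGN, by the edgeR interaction test with Benjamini-Hochberg adjustment, for each of the 22 named genes whose difference is printed, against 11.5% of all genes. These genes were named partly for that difference, so their number is a description. Values are the log2 change in CD1530 minus that in AGN.

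The change was higher in CD1530 for Sox1 (3.94), Cyp26a1 (2.63), Lefty1 (2.21), Hoxb6 (2.00), Stra6 (1.61), Wt1 (1.56), Crabp2 (1.23) and Acta2 (0.80). Sox1, Cyp26a1 and Lefty1 rose in CD1530 and fell in AGN, each called in both.

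The change was lower in CD1530 for the cartilage genes Hapln1 (-2.10), Acan (-1.93), Chad (-1.56), Col11a2 (-1.51), Col2a1 (-1.02) and Sox9 (-0.48). It was also lower for Vrtn (-1.96), Fgf5 (-1.77), Otx2 (-1.70), Fmod (-0.83), Thbs4 (-0.81), Postn (-0.65), Scx (-0.62) and Rarg (-0.48). Col2a1, Fgf5 and Vrtn fell in CD1530 and rose in AGN, each called in both. Rarg moved the same way, but its call in AGN (edgeR adjusted p 0.0459) was lost under several alternatives. The groups held 3 libraries each, so no library was screened for a value far from its group.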

How the results depend on the processing

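The count of genes called over the day in CD1530 stayed within 1.5 times of 6253 under each alternative except a minimum absolute log2 change of 1, which left 840 (408 higher and 432 lower), 862 in AGN and 343 for the interaction. Leaving out 1 library gave 5430 to 5547 calls in CD1530, 2805 to 2864 higher and 2624 to 2708 lower, 6204 to 6651 in AGN and 1655 to 1830 for the interaction. The deviations of same-numbered CD1530 libraries correlated at 0.0102, 0.0338 and 0.017, and those of AGN at -0.0526, -0.276 and -0.245. AGN libraries with different numbers correlated at -0.0315 to 0.27. These values do not show whether the samples of the days were paired, which the labels do not say. With the replicate number as a block 6216 genes were called in CD1530 (3215 higher and 3001 lower), 7126 in AGN and 1958 for the interaction. Not every library correlated best with its own number. The fit of the compared groups only called 7470, DESeq2 6072 and library size alone 6332.

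Of 246 named values 216 kept their direction and side of the threshold under all alternatives but the minimum change. The minimum change was applied only to the counts of genes called and not to the named values, many of which are below 1. The call of Col1a1 was lost with library size alone (0.23, adjusted p 0.0579) and without day 1.5 replicate 1 (0.25, 0.0994), day 1.5 replicate 3 (0.25, 0.0902), day 2.5 replicate 2 (0.26, 0.0790) or day 2.5 replicate 3 (0.27, 0.0721). Hoxa2 lost its call with DESeq2 (adjusted p 0.0590), with library size alone (0.0767) and without day 1.5 replicate 2 (0.0807) or 3 (0.0689) or day 2.5 replicate 1 (0.151) or 3 (0.0508). Comp did so without day 1.5 replicate 1 (0.0514) or 2 (0.103) or day 2.5 replicate 3 (0.0604). Col5a3 did so without day 1.5 replicate 2 (0.0753) or day 2.5 replicate 1 (0.0700). Egr1 did so without day 1.5 replicate 3 (0.0601) or day 2.5 replicate 1 (0.0637) or 2 (0.0626). Plod1 did so without day 1.5 replicate 1 (0.101) or 2 (0.159) or any library of day 2.5 (0.0614 to 0.102). Vcan did so without day 1.5 replicate 1 (0.0979) or day 2.5 replicate 1 (0.0517) or 3 (0.0555). Single libraries also decided Hoxc10 (0.102 without day 1.5 replicate 2), Thbs3 (0.0974 without day 2.5 replicate 2) and Pax9 (0.122 without day 2.5 replicate 2). Ebp, Elovl6, Irf1, Myh10, Pax1 and Tgm2, not called, gained a call under at least 1 alternative, as did Otx2 and Sox9 in AGN, and Rarg in AGN lost its call under several. The cause of these changes was not tested.

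Signs turned only for values that had not passed the test. With library size alone Col3a1 was at -0.0250, Mkx at -0.0327, Myh9 at -0.0152, Nrip1 at -0.00896, Six2 at -0.0191 and Hapln1 in AGN at -0.0543. Leaving out 1 library gave -0.204 to 0.0286 for Col11a2, -0.274 to 0.0223 for Hoxa9, -0.385 to 0.165 for Hoxb13, -0.0146 to 0.0516 for Mkx, -0.451 to 0.0535 for Podn, -0.0204 to 0.0994 for Six2, -0.0194 to 0.0907 for Hapln1 in AGN and -0.0728 to 0.354 for Wt1 in AGN. Among lists, the ribosomal list went from 2 higher and 1 lower to 2 higher and 9 lower with library size alone. Genes with few counts, such as Apoa1, Tnmd and the 2-cell-like genes, are limited by depth.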

Other observations

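Genes of IGF signalling were called higher in 8 of 13 and lower in 0 (median 0.24). Igfbp5, which binds IGFs in the matrix, rose from 1515 ± 17.1 to 2801 ± 58.2 CPM (SD, n = 3), and the days were apart (0.89 ± 0.08, edgeR adjusted p 7.44e-09). Igf2, the fetal growth factor, rose from 228 to 362 CPM (0.67 ± 0.13), Igfbp7 from 152 to 294 CPM (0.95 ± 0.07) and Igfbp3 from 219 to 391 CPM (0.84 ± 0.05), while Igfbp2 was not called (0.06 ± 0.05, adjusted p 0.399). Matrix proteases and their inhibitors were called higher in 18 of 32 and lower in 5, where 18.8% and 17.7% of all genes were. The ADAMTS genes Adamts18 (4.98 to 25.8 CPM, 2.37 ± 0.11), Adamts15 (16.7 to 39.7 CPM, 1.25 ± 0.07) and Adamts9 (65.5 to 102 CPM, 0.64 ± 0.10) rose, and the ADAMTS gene Adamts19 (7.62 to 3.45 CPM, -1.15 ± 0.15) and the MMP genes Mmp9 (295 to 163 CPM, -0.85 ± 0.04) and Mmp13 (5.39 to 2.12 CPM, -1.33 ± 0.20) fell.

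The lists that follow stand beside 18.8% of all genes called higher and 17.7% called lower. Bone-related genes were called higher in 6 of 13 and lower in 2. The homeobox genes Dlx5 (0.713 to 4.35 CPM, 2.57 ± 0.28), Dlx3 (1.31 to 4.04 CPM, 1.61 ± 0.23) and Msx1 (1.08 to 2.91 CPM, 1.43 ± 0.20) rose from low levels, the alkaline phosphatase gene Alpl fell (239 to 173 CPM, -0.47 ± 0.04), and Runx2, the main bone factor, was not called (8.78 to 9.56 CPM, 0.12 ± 0.12, adjusted p 0.489). In the Notch list 8 of 19 were called higher and 3 lower, with the target genes Hes1 higher (52.96 to 75.6 CPM, 0.52 ± 0.08) and Hey1 lower (26.6 to 20.4 CPM, -0.37 ± 0.07). Sclerotome and somite genes were called higher in 8 of 24 and lower in 5, the latter near the share of all genes. The paralogs Meox1 and Meox2 moved apart, from 91.6 to 131 CPM (0.51 ± 0.05) and from 8.76 to 3.96 CPM (-1.14 ± 0.14). The glucose transporter gene Slc2a1 was at 744, 759 and 716 CPM at day 1.5 and 1427, 1389 and 1405 CPM at day 2.5, higher in every library of day 2.5 (0.93 ± 0.03, adjusted p 9.88e-25), in a glycolysis and hypoxia list with 6 higher and 7 lower of 30. Among imprinted genes Nnat, a gene of neural and endocrine tissue, fell from 414 to 147 CPM (-1.49 ± 0.04), in a list with 6 higher and 3 lower of 17. Embryonic globin genes fell, Hbb-bh1 from 33.2 to 7.57 CPM (-2.13 ± 0.10) and Hba-x from 32.2 to 10.3 CPM (-1.64 ± 0.10), while Runx1, a factor of blood and of some skeletal progenitors, rose from 25.2 to 54.5 CPM (1.12 ± 0.07).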
